A study of Mus musculus with 6 samples.

Results

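The genes described are 47 genes of nucleotide excision repair, of the Fanconi pathway, of homologous recombination and of the damage signalling that surrounds them, chosen by name. Each gene was read through the brightest of the probe sets that carry its symbol alone, and 44 of the 47 had such a probe set, among 18193 genes that did. Gtf2h2, Rbbp8 and Xrcc2 had none and are not analysed here. The remaining 44 were above the floor of the signal scale, 30, on all 6 arrays in 38 cases and on some arrays in 5 cases, and Bard1 was at the floor on every array. Weak probe sets were not tested, which left 41 of these genes, with Ercc6, Fance and Bard1 untested.

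Nucleotide excision repair removes bulky lesions: recognition factors find the distortion, the TFIIH complex unwinds the DNA around it, and the ERCC1-XPF nuclease makes one of the cuts. Crosslinks between the strands are sensed by the Fanconi core complex, which ubiquitinates the FANCD2-FANCI pair, and the same ERCC1-XPF nuclease takes part in unhooking the crosslink before homologous recombination restores the duplex. Loss of Fanconi genes leads to marrow failure in people, so these pathways are of standing interest in blood stem cells.

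The samples were LSK cells, bone marrow cells without lineage markers that carry Sca-1 and c-Kit on their surface and include the blood stem cells with their early descendants, and the comparison asks how their expression differs when Ercc1 is impaired. The 3 Ercc1-deficient samples came from -/d mice, which carry a knockout and a truncated Ercc1 allele, and the 3 Ercc1-proficient samples from litter mates, which were +/+ in litters 1 and 2 and +/d in litter 3, so the control of litter 3 carried the truncated allele too. All mice were F1 offspring of C57BL/6 and FVB/n, aged 22 weeks in litter 1 and 20 weeks in litters 2 and 3, and the labels name no treatment and no tissue-restricted promoter or Cre. Whether a sample was 1 mouse or a pool is not stated. A p-value here therefore covers the spread between samples of 3 litters and not that between a known number of mice. That spread may be technical in part, and 3 arrays per group limit the precision of every value. In such bulk samples, fewer cells of a type and less RNA per cell cannot be told apart.

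Litter 1 stood apart from the other litters. Its Xist signals were 114 and 166 against 5087 to 14652 on the other 4 arrays, and its signals of the Y-linked gene Eif2s3y were 452 and 828 against 30 to 169. The ratio of 3′ to 5′ signals of the Actb control, which rises as transcripts shorten, lay between 9.83 and 31.4. It was highest on the deficient array of litter 1, but 16.6 on the proficient one, within the range of the other litters. For Gapdh this ratio was 26.2 and 12.5 on the deficient and proficient arrays of litter 1, against 4.92 to 7.92 on the other 4 arrays. Mean signals of the bioB control were 1807 and 741 on the deficient and proficient arrays of litter 1, against 843 to 1059 on the other 4. The 2 arrays of litter 1 thus also differed from each other in these controls. Mean 18S rRNA control signals were 181 and 172 in litter 1, against 737 to 4064. In the list of granulocyte and macrophage markers, 11 of 11 tested genes were higher in deficient cells, against 46.8% of all genes tested. With the replicate block 6 of them rose (Camp, Ngp, S100a8, S100a9, Prtn3 and Ctsg), against 56 of all 10885 genes tested. The macrophage gene Csf1r was nearly level, with a log2 difference of 0.027 and both signs among the litters. Cd14 and Itgam were at the floor throughout. Summed signals of the list were 18406, 67539 and 109430 on the deficient arrays of litters 1, 2 and 3. On the proficient ones they were 4131, 23369 and 36205. Of the genes of the sorting gate, Kit, which encodes c-Kit, was above the floor on every array and lower in deficient cells in each litter. Its log2 difference was -0.53 (limma with the block, adjusted p = 0.380). Ly6a, which encodes Sca-1, is not analysed here. In a wider list of 9 tested stem and progenitor genes, Kit and Cd34 among them, 6 were lower and 3 higher in deficient cells. With the replicate block Flt3, Procr and Hlf fell, against 65 of all 10885 genes tested. Cd48, with a log2 difference of 0.76 and groups that did not overlap, Slamf1 (0.36) and Mecom (0.15) were on the higher side and did not pass. Of 24 tested proliferation genes, 21 (87.5%) were higher in deficient cells, against 46.8% of all genes tested. Their median log2 difference was 0.25, and none passed the test with or without the block. With the block 4 of them (16.7%) had an unadjusted p under 0.05 in limma, against 12.1% of all genes tested. The part of any of these in the results on repair genes was not tested.

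No repair gene passed the test for a difference between deficient and proficient cells. Differences are deficient minus proficient on a log2(signal + 30) scale, which understates those of weak genes. A gene was called at an adjusted p under 0.05 over 22519 probe sets in limma. In the fit without litters, 0 of 41 repair genes were called, against 0% of all probe sets, and 1 repair gene (2.44%) had an unadjusted p under 0.05, against 2.57% of all genes tested. Every repair gene had the same adjusted p there, 0.9998. Arrays of equal number are litter mates, so a fit with litter as a replicate block stands beside it. That paired fit called 0.835% of all probe sets and again 0 of 41 repair genes, and a smallest adjusted p of 0.331. In it 3 repair genes (7.32%) had an unadjusted p under 0.05, a smaller share than the 12.1% of all genes tested.

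The log2 differences of the 41 genes ran from -0.55 for Trp53bp1 to 0.49 for Gtf2h5, and either end was closer to 0 without 1 array, as given below for both genes. They were positive for 23 genes and negative for 18, or 56.1% positive against 46.8% of the 10885 genes tested. Their median was 0.055, against -0.023 over all genes tested. By litter the median was 0.065, -0.072 and -0.014 in litters 1, 2 and 3, against 0, -0.050 and 0 over all genes tested. The repair gene median thus did not keep its sign. Without litter 1 the median was -0.023 and 17 of 41 genes were higher, and again 0 repair genes were called, with or without the block.

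In 3 repair genes every deficient array exceeded every proficient array: the checkpoint kinase gene Chek2 and the strand exchange genes Rad51c and Rad54l. That is 7.32% of the 41, against 2.41% of all genes tested. The opposite arrangement occurred in 0 of 41 repair genes, against 5.23% of all genes tested. Within litters, the deficient array was the higher one in all 3 pairs for 8 repair genes (19.5%, against 12.6% of all genes tested). It was the lower one in all 3 pairs for another 8 (19.5%, against 17.9%), and the litters differed in direction for the other 25.

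**Figure D1:**
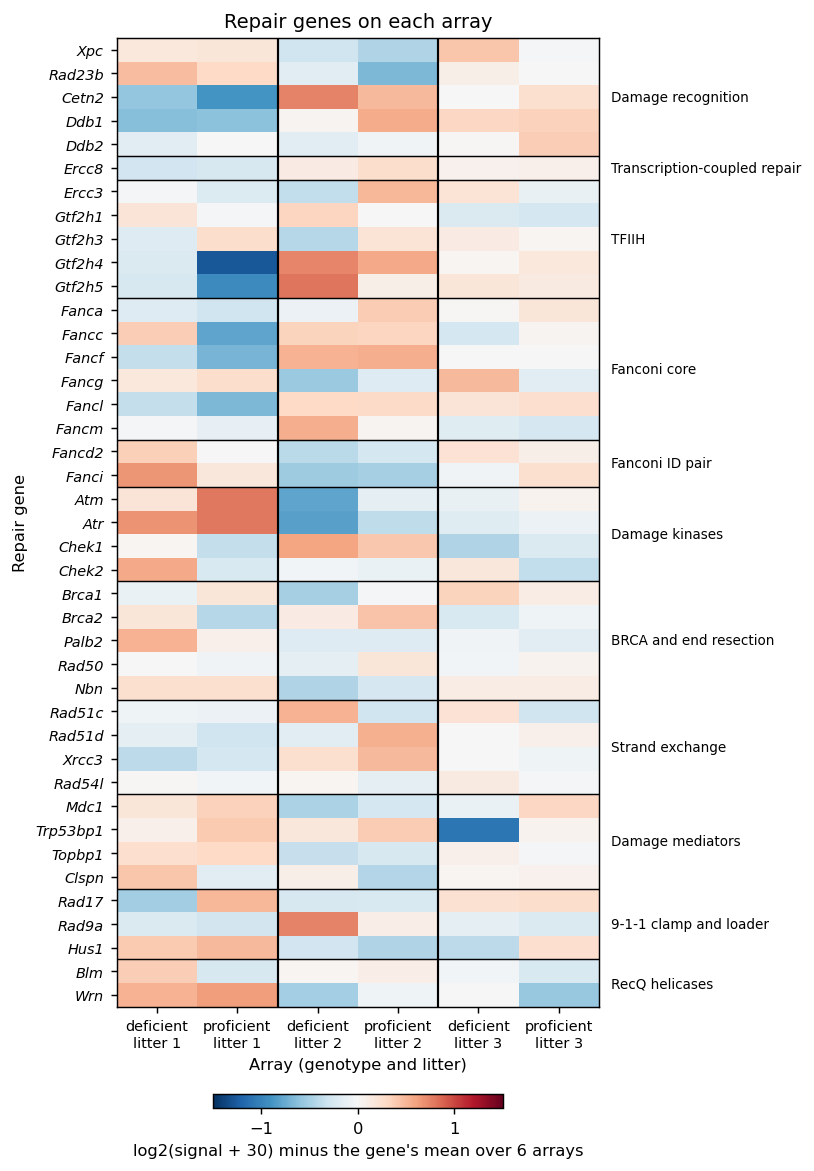
Each row is one of the 41 tested repair genes, grouped by role, and each column one array, with litter mates side by side; colour gives log2(signal + 30) minus that gene's mean over the 6 arrays. Litter mates often share a colour, as in Cetn2, Fancl, Atr and Fancf, and Rad51c, Chek2 and Rad54l are the rows whose deficient columns all exceed the proficient ones.

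The promoters of Chek2, Rad51c and Rad54l are shown because these were the genes whose groups did not overlap. Each line gives 300 bases around a transcript start from RefSeq (GRCm38.p6), 5′ to 3′ in the direction of the gene, with capitals marking the words found of those searched. Chek2 lies on the plus strand at chr5:110839733-110840032, Rad51c on the minus strand at chr11:87404457-87404756 and Rad54l on the minus strand at chr4:116123641-116123940.
Chek2: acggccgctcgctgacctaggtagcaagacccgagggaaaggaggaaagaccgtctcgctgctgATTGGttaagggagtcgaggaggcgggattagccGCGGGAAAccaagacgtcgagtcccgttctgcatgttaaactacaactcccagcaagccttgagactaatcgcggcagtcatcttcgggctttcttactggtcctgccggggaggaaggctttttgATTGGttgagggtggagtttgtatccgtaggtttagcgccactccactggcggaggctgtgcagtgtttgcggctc
Rad51c: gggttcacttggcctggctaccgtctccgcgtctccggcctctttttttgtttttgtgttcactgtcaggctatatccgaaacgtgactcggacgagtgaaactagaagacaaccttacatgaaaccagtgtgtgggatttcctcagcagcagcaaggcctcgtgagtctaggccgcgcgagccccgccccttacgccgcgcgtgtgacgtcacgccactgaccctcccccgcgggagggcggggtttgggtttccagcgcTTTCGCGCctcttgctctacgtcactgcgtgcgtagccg
Rad54l: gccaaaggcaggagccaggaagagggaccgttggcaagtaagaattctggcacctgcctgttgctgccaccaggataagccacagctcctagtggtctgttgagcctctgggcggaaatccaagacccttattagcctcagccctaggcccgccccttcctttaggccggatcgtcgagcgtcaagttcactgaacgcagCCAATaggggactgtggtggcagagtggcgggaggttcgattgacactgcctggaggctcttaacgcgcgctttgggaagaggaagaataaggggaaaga
The words searched on both strands were TTTCCCGC, TTTCGCGC, TTTGCCGC and TTTGGCGC for E2F factors, which drive genes of S phase, GCATGCGC for NRF1, CCGGAAG for ETS factors, CCAAT for NF-Y, TTTGAA for the cell cycle homology region and TATAAA for the TATA box. These words do not overlap one another in the 3 windows printed.

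Chek2 held an E2F word at bases 99 to 106 of its window, and CCAAT, read on the other strand, at bases 65 to 69 and 225 to 229. Rad51c held TTTCGCGC at bases 262 to 269, and Rad54l held CCAAT at bases 201 to 205 and none of the E2F words. Rad51c and Rad54l each had 2 windows, and only the first was searched. Among the 36 repair genes with a window, 8 held an E2F word (22.2%): Fancg, Chek2, Brca2, Bard1, Rad51c, Mdc1, Topbp1 and Clspn. The share was 2.32% of the windows of 27025 genes and 4.24% of those of 8886 genes tested on the arrays. The log2 differences of these genes were 0.46 for Chek2, 0.45 for Rad51c, 0.36 for Clspn, 0.060 for Fancg, 0.053 for Brca2, -0.014 for Topbp1 and -0.27 for Mdc1, with Bard1 at the floor and untested, so holders of the word lay on both sides of 0.

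The NRF1 word was in 4 of the 36 windows (Ercc6, Fancm, Fanci and Atm), or 11.1%, against 2.80% of all genes and 5.76% of tested ones. CCAAT was in 18 (50%, against 37.9% and 38.4%) and the ETS word in 6 (16.7%, against 9.12% and 19%). The cell cycle homology word and TATAAA were in 2 windows each (5.56%), against 18.1% and 14.2% of all genes and 12% and 7.33% of tested ones. Median GC content was 59.8% in the repair gene windows, 52.7% in all and 61% in those of tested genes, so the repair promoters were close to tested genes in base composition. No window was in the table for Xpc, Ddb2, Ercc3, Fancd2, Rbbp8, Rad50, Nbn, Rad51d, Xrcc2, Rad9a and Wrn.

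Damage recognition comes first in excision repair, where XPC, carried with RAD23B and centrin 2, scans the genome and the DDB1-DDB2 pair finds ultraviolet lesions. The 5 genes were measured well above the floor, and 3 were higher and 2 lower in deficient cells. Rad23b gave signals of 273, 165 and 204 on the deficient arrays of litters 1, 2 and 3, and 241, 107 and 190.2 on the proficient ones. The deficient array was the higher one in each litter although the groups overlapped, and the log2 difference was 0.25 with a blocked standard error of 0.23. A weaker Rad23b probe set was lower in each litter, with a log2 difference of -0.22. Other weak ones had 0.32 and 0.038, with litters of both signs. Ddb2, whose protein binds the lesion itself, gave 216, 218 and 249.9 in deficient and 248, 238 and 328 in proficient cells, lower in each litter, with a log2 difference of -0.21 and a blocked 95% interval from -0.68 to 0.25. A second, weaker Ddb2 probe set was lower in each litter too, with a log2 difference of -0.25. Ddb1, the partner of Ddb2, also had the lower deficient array in each litter, with a log2 difference of -0.19. Xpc (0.19) and Cetn2 (0.12) differed in sign between litters. A second, weaker Cetn2 probe set had a log2 difference of -0.14, also with litters of both signs.

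In transcription-coupled repair, ERCC6 and ERCC8 recognise a stalled RNA polymerase. Ercc6 was at 30 on the deficient arrays and at 39.8, 30 and 30.4 on the proficient ones, so it was at or near the floor on all of them. Ercc8 gave 31.5, 51.7 and 48.1 in deficient and 33.7, 59.8 and 48.9 in proficient cells. Litter mates lay close together and litter 1 was low in both groups, with a log2 difference of -0.068 and 95.3% of the spread lying between litters.

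TFIIH opens the DNA helix in excision repair and at promoters, and 3 of its 5 measured genes were higher and 2 lower. Gtf2h5, the smallest subunit, which stabilises the complex, gave 643, 1358 and 869 in deficient cells and 379, 813 and 842 in proficient cells. Its deficient array was the higher one in each litter, with nearly equal values in litter 3. The mean was 957 ± 365 (SD, n = 3) against 678 ± 259.6 (SD, n = 3), a log2 difference of 0.49 whose blocked interval ran from 0.022 to 0.97 (limma with the block, adjusted p = 0.408). It was 0.14 without the proficient array of litter 1 and 0.22 without the deficient array of litter 2. A second, weak Gtf2h5 probe set, with signals between 30 and 56.6, had a log2 difference of -0.058.

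Gtf2h4, a core subunit that binds the XPB helicase, gave 206, 425 and 249 in deficient and 83.2, 377 and 275 in proficient cells. Only litter 1 showed a wide gap, and litter 3 ran the other way. The log2 difference was 0.36 (limma with the block, adjusted p = 0.617), and without the proficient array of litter 1 it was -0.18. Its probe set has the x_at suffix, which Affymetrix gives to probes that may also match other transcripts, as have the brightest ones of Cetn2 and Xrcc3. The 2 further tested Gtf2h4 probe sets had log2 differences of -0.11 and 0.095. Of the other subunits, Gtf2h1 was higher in each litter (log2 difference 0.20), Ercc3, the XPB helicase, had -0.12 with litter 2 opposite to the others, and Gtf2h3 had -0.33.

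The Fanconi core complex is the ubiquitin ligase of the crosslink response. Of its 6 tested genes 5 were higher and 1, Fanca, was lower, with log2 differences between -0.17 and 0.29. Fancc gave 115, 112 and 64.1 in deficient cells and 34.9, 111 and 85.7 in proficient cells. The gap came from litter 1 and litter 3 had the opposite sign, and the log2 difference of 0.29 became -0.14 without litter 1. Fancm, the translocase that brings the complex to DNA, gave 39.7, 73.8 and 32.6 in deficient and 35.6, 43.0 and 30 in proficient cells, the lowest value being at the floor. The deficient array was higher in each litter, with a log2 difference of 0.22 and a blocked interval from -0.13 to 0.57, and without the deficient array of litter 2 the difference was 0.00082. Fancf, Fancg and Fancl had log2 differences of 0.10, 0.060 and 0.090, each with both signs among the litters, and Fance left the floor only on the deficient array of litter 1, at 40.9.

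FANCD2 and FANCI form the clamp that this ligase modifies. Fancd2 gave 75.8, 32.9 and 66.3 in deficient and 52.7, 39.2 and 58.4 in proficient cells. Fanci gave 192, 66.8 and 106 in deficient and 127, 69.5 and 136 in proficient cells. Both genes were lowest in litter 2 in either genotype and higher in the deficient array of litter 1, with litters of both signs and log2 differences of 0.11 and 0.055. Without litter 1 they were -0.0083 and -0.17.

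ATM and ATR are the apical kinases of the response to breaks and to stalled forks, and CHEK2 and CHEK1 their main effectors. Chek2 gave 569, 363 and 428 in deficient cells and 316, 349 and 284 in proficient cells. All deficient values exceeded all proficient ones, but by a small margin in litter 2, where the log2 difference was 0.051 against 0.79 in litter 1 and 0.54 in litter 3. The mean was 453 ± 106 (SD, n = 3) against 317 ± 32.5 (SD, n = 3), a log2 difference of 0.46 with a blocked interval from -0.011 to 0.93 (limma with the block, adjusted p = 0.451).

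Atm gave 162, 66.5 and 125 in deficient cells and 259, 121 and 144 in proficient cells. Each litter had the lower value in its deficient array, while litter 1 was the highest litter in both genotypes, so the groups overlapped. The log2 difference was -0.47 with a blocked interval from -0.96 to 0.023 (limma with the block, adjusted p = 0.465). Leaving out the deficient array of litter 2 or the proficient array of litter 1 gave -0.19 in either case. A second Atm probe set had a log2 difference of -0.035, with litters of both signs. Atr was lower in each litter too, with a log2 difference of -0.22 and 94.6% of its spread between litters, and Chek1 had a log2 difference of 0.12 with litter 3 opposite to the others.

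**Figure D2:**
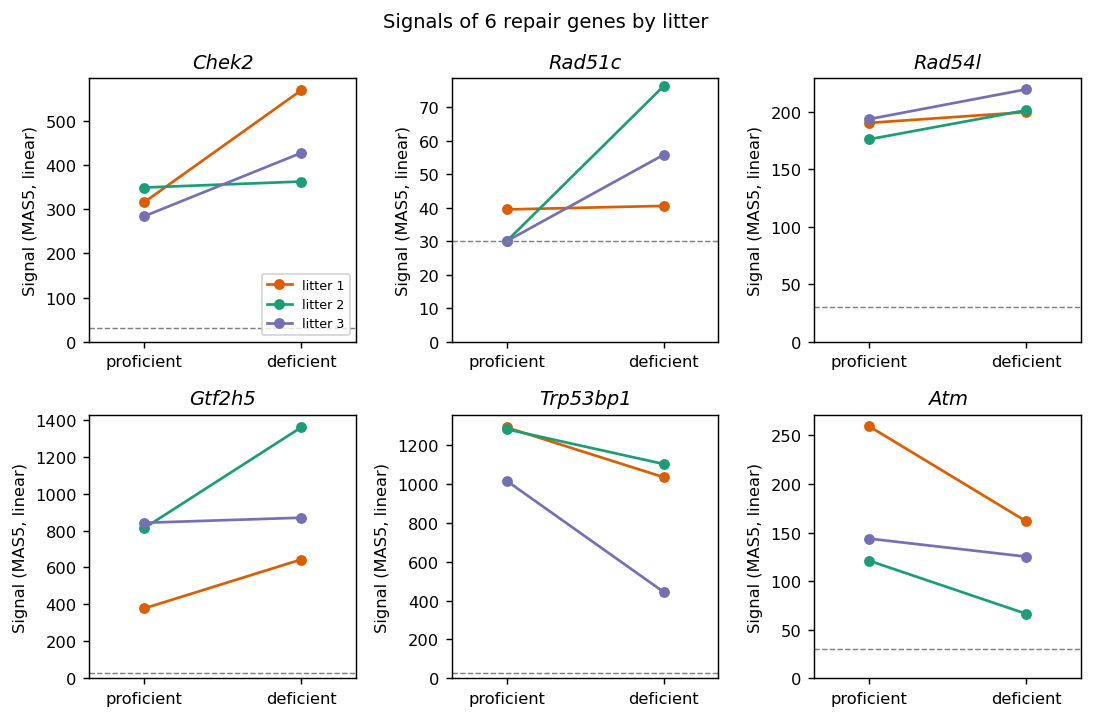
Linear signals of Chek2, Rad51c, Rad54l, Gtf2h5, Trp53bp1 and Atm on the proficient (left) and deficient (right) array of each litter; lines join litter mates and the dashed line is the floor of 30. Chek2, Rad51c and Rad54l show no overlap between genotypes, whereas Gtf2h5, Trp53bp1 and Atm differ in the same direction in each litter from different levels.

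BRCA1 with BARD1 promotes resection, and PALB2 joins BRCA1 to BRCA2, which acts on the resected single strand. Brca1 gave 178, 127 and 249.6 in deficient cells and 222, 189.5 and 210.4 in proficient cells. Litters 1 and 2 had the lower deficient array and litter 3 the higher one, with a log2 difference of -0.18. Palb2 gave 276, 158 and 176 in deficient and 195, 158 and 162 in proficient cells, nearly equal in litter 2, with a log2 difference of 0.18 that was -0.031 without the deficient array of litter 1. The other 3 tested genes had log2 differences of 0.053 (Brca2), -0.12 (Rad50) and -0.069 (Nbn), none with the same sign in all litters. The blocked 95% intervals of all 5 tested genes lay within 1 log2 unit of 0, the widest bound being -0.67 for Brca1.

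The products of Rad51c, Rad51d, Xrcc3 and Rad54l act in the strand exchange step of recombination. Rad51c gave 40.5, 76.2 and 55.8 in deficient cells and 39.5, 30 and 30 in proficient cells. The groups did not overlap, but 2 of the proficient values were at the floor and litter 1 differed little. The log2 difference was 0.45 with a blocked interval from 0.075 to 0.83 (limma with the block, adjusted p = 0.331, the smallest of the repair genes). A second Rad51c probe set was at the floor on all 6 arrays.

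Rad54l gave 199.7, 201 and 219.5 in deficient cells and 190.4, 176 and 194 in proficient cells. The groups did not overlap but lay close, at a mean of 207 ± 11 (SD, n = 3) against 187 ± 9.33 (SD, n = 3), a log2 difference of 0.13 with a blocked interval from -0.34 to 0.60 (limma with the block, adjusted p = 0.860). None of the other 3 tested Rad54l probe sets repeated the separation, with log2 differences of 0.11, -0.067 and 0.26. Rad51d gave 47.5, 46.3 and 56.5 in deficient and 39.9, 94.5 and 60.6 in proficient cells, a log2 difference of -0.21 that rested on litter 2. The further tested, weaker Rad51d probe sets had log2 differences of -0.20, -0.19 and -0.15. None of them was lower in every litter. Xrcc3 had a log2 difference of -0.10, and litter 3 had the opposite sign.

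Mediator proteins gather at breaks and forks: MDC1 reads modified histone H2AX, 53BP1 limits resection, and TOPBP1 and claspin pass the ATR signal on. Trp53bp1, which encodes 53BP1, gave 1035, 1103 and 445 in deficient cells and 1291, 1282 and 1016 in proficient cells. The deficient array was lower in each litter, by the widest gap in litter 3, with a log2 difference there of -1.14. The mean was 861 ± 362 (SD, n = 3) against 1196 ± 156 (SD, n = 3), a log2 difference of -0.55 with a blocked interval from -1.04 to -0.064 (limma with the block, adjusted p = 0.361). Without the deficient array of litter 3 it was -0.15. A second Trp53bp1 probe set gave 78.3, 57.0 and 33.2 in deficient and 141, 74.9 and 98.4 in proficient cells, again lower in each litter, with a log2 difference of -0.65 (limma with the block, adjusted p = 0.257). Another, weak one had a log2 difference of 0.036.

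Clspn gave 308, 239 and 228 in deficient cells and 194, 157 and 234 in proficient cells. Litters 1 and 2 had the higher deficient array and litter 3 was nearly level, with a log2 difference of 0.36 (limma with the block, adjusted p = 0.590). A weaker Clspn probe set had a log2 difference of -0.038. Mdc1 was lower in each litter, with a log2 difference of -0.27, and 96.4% of the spread of Topbp1 lay between litters.

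The 9-1-1 clamp of RAD9A, HUS1 and RAD1 is loaded by RAD17 onto resected DNA and switches ATR on. Rad17 gave 109, 139 and 204 in deficient cells and 252, 140.0 and 210.4 in proficient cells. Litters 2 and 3 were nearly level, and the log2 difference of -0.36 came from litter 1, where it was -1.02. Rad9a gave 66.9, 158 and 72.4 in deficient and 62.6, 90.8 and 66.7 in proficient cells, higher in each litter but widely only in litter 2, with a log2 difference of 0.26. Hus1 had a log2 difference of -0.19, with litter 2 opposite to the others.

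BLM and WRN are RecQ helicases that resolve recombination intermediates. Blm gave 365, 284 and 268 in deficient cells and 231, 299.6 and 232 in proficient cells, with litter 2 opposite to the others and a log2 difference of 0.24. Wrn gave 220.3, 92.0 and 144 in deficient and 238, 136 and 87.7 in proficient cells. Its litters ran in both directions and cancelled to a log2 difference of 0.0079, with a blocked interval from -0.51 to 0.52.

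**Figure D3:**
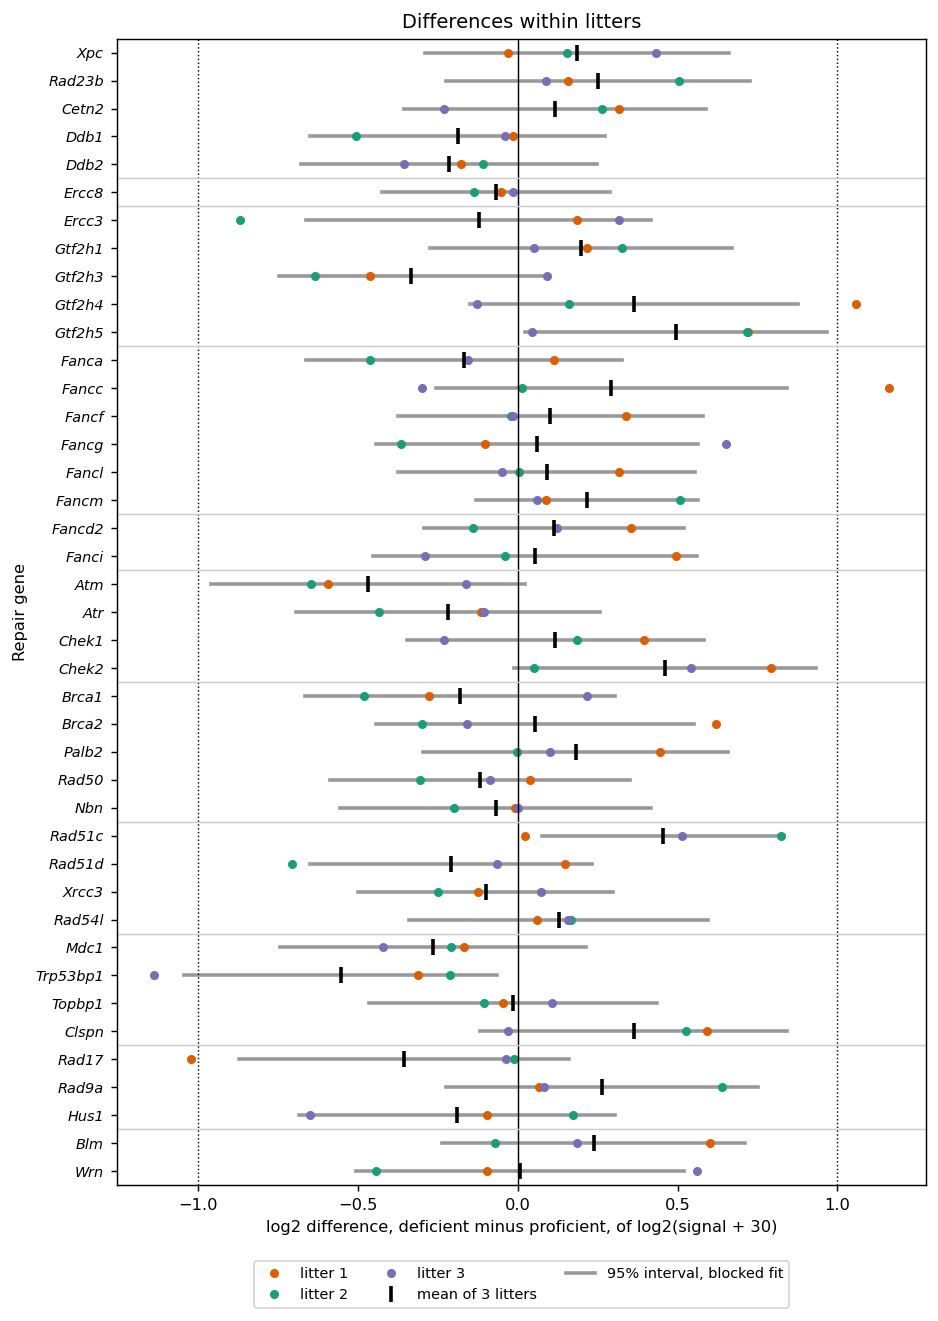
The log2 difference, deficient minus proficient, of each tested repair gene: dots are the 3 litters, the black mark their mean and the grey bar the 95% interval of the fit with litter as a block; dotted lines mark 1 log2 unit to either side of 0. All intervals but that of Trp53bp1, whose lower bound is -1.04, lie between the dotted lines.

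The intervals show what size of difference these arrays could still hold. With the replicate block, the 95% interval lay within 1 log2 unit of 0 for 40 of the 41 repair genes (97.6%, against 90.2% of all genes tested), Trp53bp1 being the exception. Its median half-width was 0.48. Without the block only 24 of the 41 intervals (58.5%, against 51.4%) lay within that range. Differences inside these intervals were not resolved by 3 arrays per group.

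As over all genes, more of the spread of repair gene signals lay between litters than between genotypes, but litters have 2 degrees of freedom and genotypes 1, so the litter share is on average the larger even where neither has an effect. Of the sum of squares over the 6 arrays, the median share between litters was 70% and that between genotypes 11.8%, against 64.5% and 9.02% over all genes tested. The litter share was the larger in 34 of 41 repair genes (82.9%, against 82.7%). Genotype took its largest shares in Rad51c (60.2%), Rad54l (59.7%), Chek2 (58.5%), Clspn (48.3%) and Gtf2h3 (47.5%). Both arrays of litter 1 were above the other 4 in 8 repair genes (19.5%, against 17.2% of all genes tested). Both were below the other 4 in 9 repair genes (22.0%, against 22.2%).

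**Figure D4:**
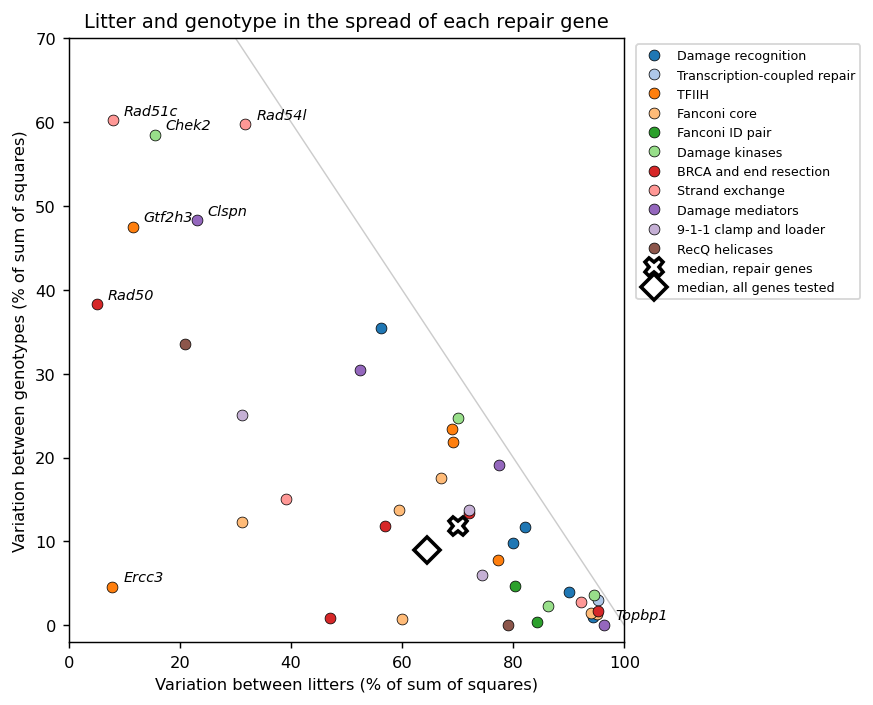
For each tested repair gene, coloured by role, the share of its sum of squares on the log2(signal + 30) scale that lies between litters (horizontal) and between genotypes (vertical); the grey line is where both add to 100%. Most genes lie at the lower right, with medians of 70% and 11.8%, and Rad51c, Rad54l and Chek2 lie highest.

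Further probe sets of the same genes gave another view, since 29 of the 44 genes had more than 1. Of 55 further probe sets 31 were tested, and 18 of these had a log2 difference of the same sign as the brightest one and 13 the opposite sign. The genes with the widest differences were of both kinds, as given above for Trp53bp1, Gtf2h5, Gtf2h4, Atm and Clspn, and Chek2 and Blm had a single probe set. Weak further probe sets of Fancc (0.14), Fancm (0.12) and Fancd2 (0.15) had the sign of the brightest one. A weak one of Brca1 (0.16) had the opposite sign.

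**Figure D5:**
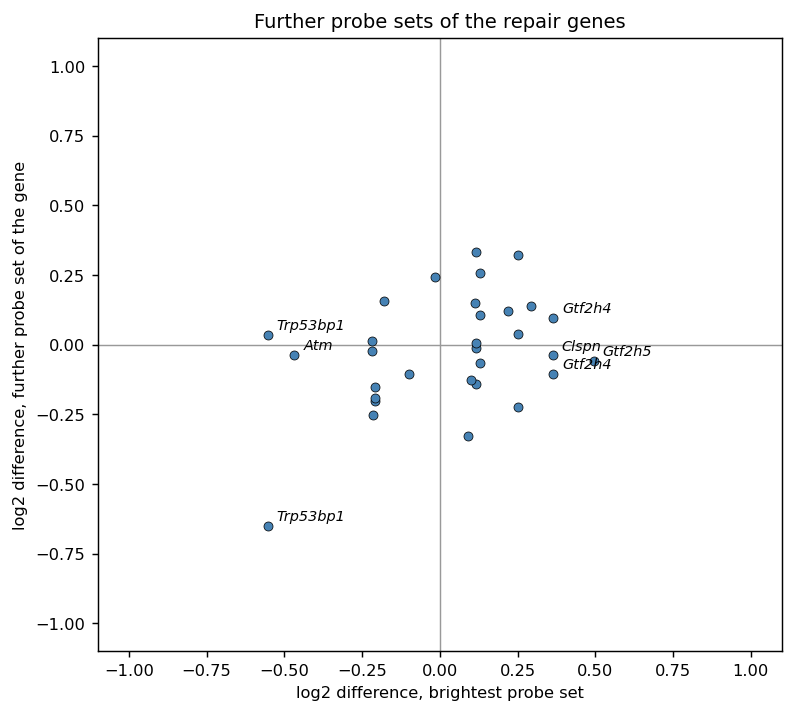
Each point is a further tested probe set of a repair gene, with the log2 difference, deficient minus proficient, of the gene's brightest probe set on the horizontal axis and its own on the vertical axis. Of the 31 points 18 lie in the quadrants of equal sign, and Trp53bp1 has one further probe set at -0.65 and another at 0.036.

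A list of 50 other genes of the same pathways was set beside them, and 46 were tested. In deficient cells 21 were higher and 25 lower, with a median log2 difference of -0.038. Without the block 0 were called, and with it 1 fell, Ercc1 itself. Ercc1 gave 79.9, 34.5 and 44.9 in deficient cells and 128, 244 and 176 in proficient cells, with no overlap. The log2 difference was -1.36 (limma with the block, adjusted p = 0.0138; 0.942 with the block and no filter on weak probe sets; 0.066 with the block and litter 2 left out), and an exact permutation test of the same values (two-sided) had p = 0.1, its smallest possible value with 3 arrays against 3. A second tested Ercc1 probe set had a log2 difference of -0.44 and was not called (limma with the block, adjusted p = 0.299), and the mean of the gene's probe sets had -0.90. The next lowest was Rad52, an annealing protein of recombination, with 32.1, 49.5 and 80.4 in deficient and 88.9, 78.6 and 96.8 in proficient cells and a log2 difference of -0.53 (limma with the block, adjusted p = 0.361).

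The highest of these genes was Gen1, a nuclease that cuts Holliday junctions, with 133, 123 and 148 in deficient cells and 71.1, 102 and 63.4 in proficient cells. Its groups did not overlap, and the log2 difference was 0.61 (limma with the block, adjusted p = 0.322). Rpa3, a subunit of the single-strand binding complex RPA, followed with a log2 difference of 0.45 (limma with the block, adjusted p = 0.469). It gave 341, 1203 and 893 in deficient and 220.3, 677 and 906 in proficient cells, with litter 1 low in both groups and litter 3 nearly level.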

How the data were processed

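LSK cells of 6 samples were sorted into lysis buffer, and their RNA was amplified linearly and read on Mouse Genome 430 2.0 arrays of Affymetrix, according to the labels' protocols. The authors deposited 1 linear signal intensity per probe set and array, computed with MAS5 (version not given) per the submitters' processing notes. No value lies below 30; which step set this floor is not given in the sources. Linear amplification shortens transcripts towards their 3′ ends, which favours probes there.

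Groups came from the genotype labels, with 3 arrays each. Gene names came from the 2016 annotation of the platform, in which 34945 probe sets have a single gene symbol, and each gene was read through its brightest probe set. Values were transformed as log2(signal + 30). The 22519 probe sets, controls left out, with a mean signal at or above the median (32.6) were tested with limma 3.58.1 in R 4.3.3 (lmFit, and eBayes with a variance trend) on group alone, with Benjamini-Hochberg adjustment over all of them. The labels say that arrays of equal number are litter mates, and the pairing was taken from there. Over probe sets, the deviations of 2 litter mates from their groups' means had correlations of 0.77 (litter 1), 0.67 (litter 2) and 0.46 (litter 3). The fit with litter as a replicate block is therefore given beside the fit on group alone. The code was tested on simulated data.

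The repair genes, the 50 other pathway genes, the marker lists, the roles and the tests were chosen with earlier results of these data known. Values on every array are given for genes that passed, whose groups did not overlap, or that were among the 2 of their role with the widest difference. A list is described by its counts and median beside those of all genes tested. Spread was split into sums of squares between litters, between genotypes and the rest. Promoter windows came from a RefSeq table of GRCm38.p6, which held 36 of the 47 genes, and the first window listed for a gene was searched. Alternatives were the block, other normalizations, pseudocounts, filters, variance models and summaries of probe sets, and arrays or litters left out.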

Additional observations from a re-analysis of the deposited data

How the results depend on the processing

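Over 22 other settings, 0 repair genes were called in any, and of 477 values for the 22 genes given by array 453 kept their sign without being called, 24 changed sign in 11 genes and 0 were called (smallest adjusted p 0.191, limma). With the replicate block, which paired litter mates, Ercc1 was called (-1.36, adjusted p = 0.0138). It was also called with the block and quantile normalization (-1.30). Leaving out litter 1 (-1.78) or litter 3 (-1.31), with the block, kept the call. In each of these fits Ercc1 itself was the only gene of the other pathway list that was called. With the block and no filter (-1.36, adjusted p = 0.942), and with the block and litter 2 left out (-0.99, adjusted p = 0.066), it was not called. The median log2 difference of the repair genes was 0.14 after centring arrays on the median. Centring moves the difference of every gene by the same amount, so repair genes did not move relative to other genes. The median was 0.099 after quantile normalization and 0.0079 with the mean of a gene's probe sets (21 of 41 higher). Without litter 1, with the block or without a litter term, it was -0.023. With 1 array left out it lay between -0.032 and 0.042. The cause of these other changes was not tested. Through the common shift, median centring gave Ercc8 a log2 difference of 0.022. Leaving out litter 1 gave -0.14 for Fancc, -0.0083 for Fancd2 and -0.17 for Fanci. Leaving out litter 2 with the block gave 0.041 for Rad51d, and leaving out litter 3 with the block gave -0.27 for Wrn. With 1 array left out, log2 differences ran from -0.20 to 0.058 for Ercc8, -0.035 to 0.34 for Fancd2, -0.26 to 0.34 for Fanci, -0.031 to 0.32 for Palb2, -0.27 to 0.32 for Wrn, -0.18 to 0.74 for Gtf2h4, -0.032 to 0.52 for Fancc, -0.39 to 0.025 for Brca1, -0.044 to 0.44 for Rad9a, -0.026 to 0.46 for Rad23b and -0.41 to 0.0068 for Rad51d. Among genes that kept their sign they ran from 0.30 to 0.60 for Chek2, 0.30 to 0.60 for Rad51c, 0.24 to 0.48 for Clspn, 0.11 to 0.35 for Blm, -0.56 to -0.18 for Rad17, -0.29 to -0.084 for Ddb2, 0.14 to 0.74 for Gtf2h5, -0.78 to -0.15 for Trp53bp1, -0.68 to -0.19 for Atm, 0.00082 to 0.37 for Fancm and 0.090 to 0.15 for Rad54l. The filter on the mean log2 value and the fit without litter 1 and without a litter term were added after seeing the data. Probe sets near the floor of 30, as for Rad51c and Fancm, hold differences that these arrays cannot size.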
